A study of Mus musculus with 25 samples.

Results

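The genes described here are 10 genes of fatty acid synthesis, elongation and desaturation: Acaca, Fasn, Scd1, Scd2, Elovl1, Elovl5, Elovl7, Fads1, Fads2 and their transcription factor Srebf1. They were chosen by symbol, and all 10 were found among the 23351 genes of the table. The libraries are 8 from Day 5 of white matter stroke, 7 from Day 15 of white matter stroke and 10 labelled Control, all made from mouse brain tissue that was cut out by laser capture microdissection and is labelled oligodendrocyte precursor cells (OPC). White matter stroke cuts off the blood supply of myelinated tracts, and OPC are the dividing glial cells that give rise to myelin-forming oligodendrocytes. The way the stroke was made, the strain, age and sex of the mice, and how the captured areas were picked are not described in the labels used here. The labels do not say which animal a library came from, so any p-value is too small where libraries have an animal in common, and p-values measure only the spread between these libraries, which may be technical. Values are RPKM, reads scaled to the length of the gene and to the reads of the library, so levels can be set side by side between genes, but read depth is unknown.

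Fatty acids are built in the cytosol from acetyl-CoA. Acetyl-CoA carboxylase (Acaca) makes malonyl-CoA, and fatty acid synthase (Fasn) joins it into palmitate. Elongases (Elovl1, Elovl5, Elovl7) lengthen the chain, stearoyl-CoA desaturases (Scd1, Scd2) turn saturated into monounsaturated chains, and the fatty acid desaturases Fads1 and Fads2 act on polyunsaturated ones. SREBP-1, the product of Srebf1, is a membrane-bound transcription factor that switches on most of these genes when it is released. Myelin is unusually rich in lipid, and Scd2 is known as the main stearoyl-CoA desaturase of the mouse brain.

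Markers of the labelled cell type were uneven. Of 12 OPC markers, Ptprz1 reached 1 RPKM in 25 of 25 libraries, Vcan in 23, Sox10 in 18, Olig1 in 17, Gpr17 in 14, Pdgfra, the growth factor receptor of OPC, in 10, Lhfpl3 in 8, Cspg4 in 7, Olig2 in 5, Matn4 in 2 and C1ql1 and Cacng4 in 1 each. Their sum ran from 19.6 to 111 RPKM at Day 5 (median 31.3), from 15.0 to 283 RPKM at Day 15 (median 44.6) and from 9.68 to 114 RPKM in Control (median 22.5), and the groups overlapped. The myelin gene Mbp reached 1 RPKM in all 25 libraries. The summed RPKM of 10 macrophage markers ran from 156 to 2619 at Day 5, from 56.9 to 590 at Day 15 and from 0.934 to 130 in Control, so Day 5 and Control did not overlap. The same held for 12 microglia markers, with 80.7 to 665 at Day 5, 44.5 to 1648 at Day 15 and 9.77 to 73.0 in Control. Single markers in both lists were uneven, so the sums do not speak for each marker. Macrophage markers reached 1 RPKM in from 5 libraries (Ccr2) to 22 (Lyz2 among them), and Lyz2 rose as high as 2210 RPKM. Microglia markers did so in from 7 libraries (Aif1) to 25 (Ctss), and Ctss rose as high as 1377 RPKM. The 14 markers of mature oligodendrocytes found in the table summed to 122 to 1345 RPKM at Day 5 (median 325), 49.9 to 606 at Day 15 (median 174) and 182 to 1362 in Control (median 824). Libraries held 2353 to 6592 genes at 1 RPKM or more at Day 5, 1749 to 5266 at Day 15 and 1306 to 4320 in Control. In such bulk samples, fewer cells of a type and less RNA per cell cannot be told apart.

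**Figure D1:**
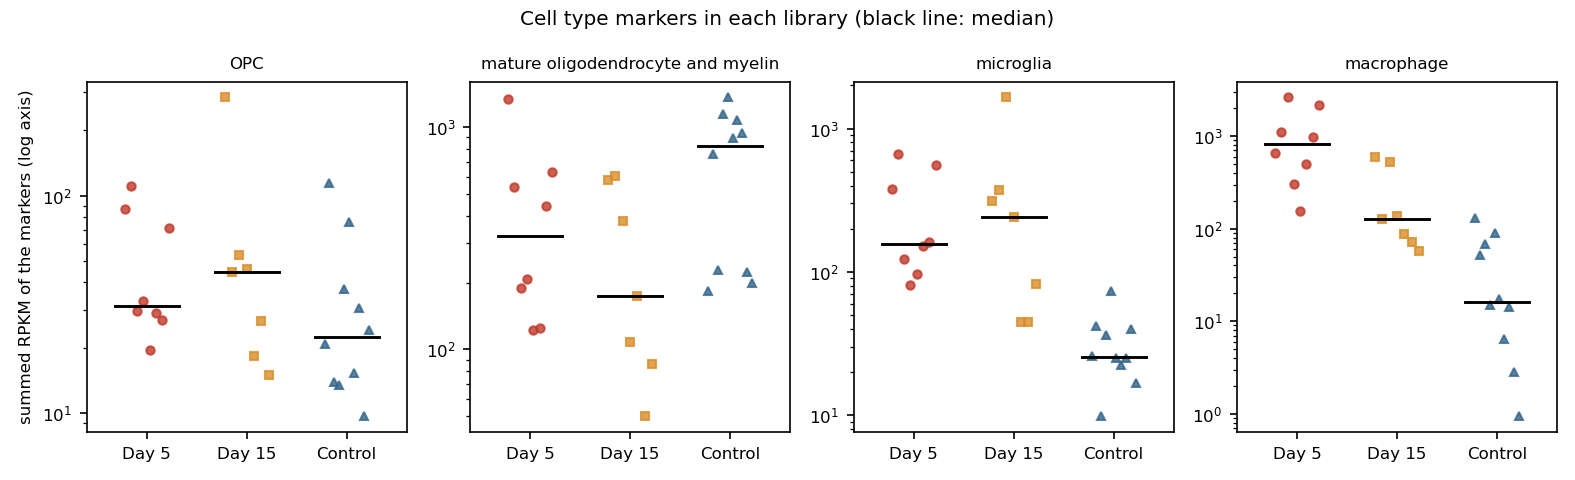
Summed RPKM of the markers of 4 cell types (log axis) in every library of Day 5, Day 15 and Control; each point is a library, its sideways place within a group has no meaning, and black lines are medians. The macrophage sums at Day 5 start at 156 RPKM, above the highest Control library at 130 RPKM, while the myelin sums overlap.

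None of the 8 members tested passed in any comparison on the values as deposited. Genes were tested where they had at least 1 RPKM in at least 7 libraries, which left 4319 and excluded Elovl1 (6 libraries) and Fads2 (5 libraries); the test was limma on log2(RPKM + 1), which shrinks the change of genes with low levels, with a call at a Benjamini-Hochberg adjusted p under 0.05. At Day 5 against Control limma called 0 of 8 members against 6.04% of all genes (6.02% as higher, 0.0232% as lower), and 2 members had an unadjusted p under 0.05, Scd1 as lower and Elovl5 as higher. At Day 15 against Control it called 0 of 8 members against 0.0926% of all genes, and the sole member with an unadjusted p under 0.05 was Srebf1, as higher. At Day 15 against Day 5 it called 0 of 8 members and 0% of all genes, and Elovl5, as lower, was the sole member with an unadjusted p under 0.05. Among all genes tested, unadjusted p under 0.05 were met at Day 5 by 25.6% as higher and 0.347% as lower, and at Day 15 against Control by 7.55% as higher and 1.32% as lower. For Day 15 against Day 5 the shares were 0.787% as higher and 13.9% as lower.

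The median change of all genes lay above 0 at Day 5. The median log2 change of the 8 members was 0.12 at Day 5, beside 0.61 for all 4319 genes, and 6 of the 8 lay under the median of all genes, Elovl5 and Fads1 above it. At Day 15 against Control it was -0.67 for the members and 0.17 for all genes, with 5 of 8 members under the median of all genes. The median over all genes at Day 5 was 0.10 after upper-quartile scaling and -0.02 after quantile normalization. With these scalings 22 genes (18 higher, 4 lower) and 20 genes (14 higher, 6 lower) were called at Day 5, in place of 261 (260 higher, 1 lower), and Scd1 was among the lower ones in both.

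**Figure D2:**
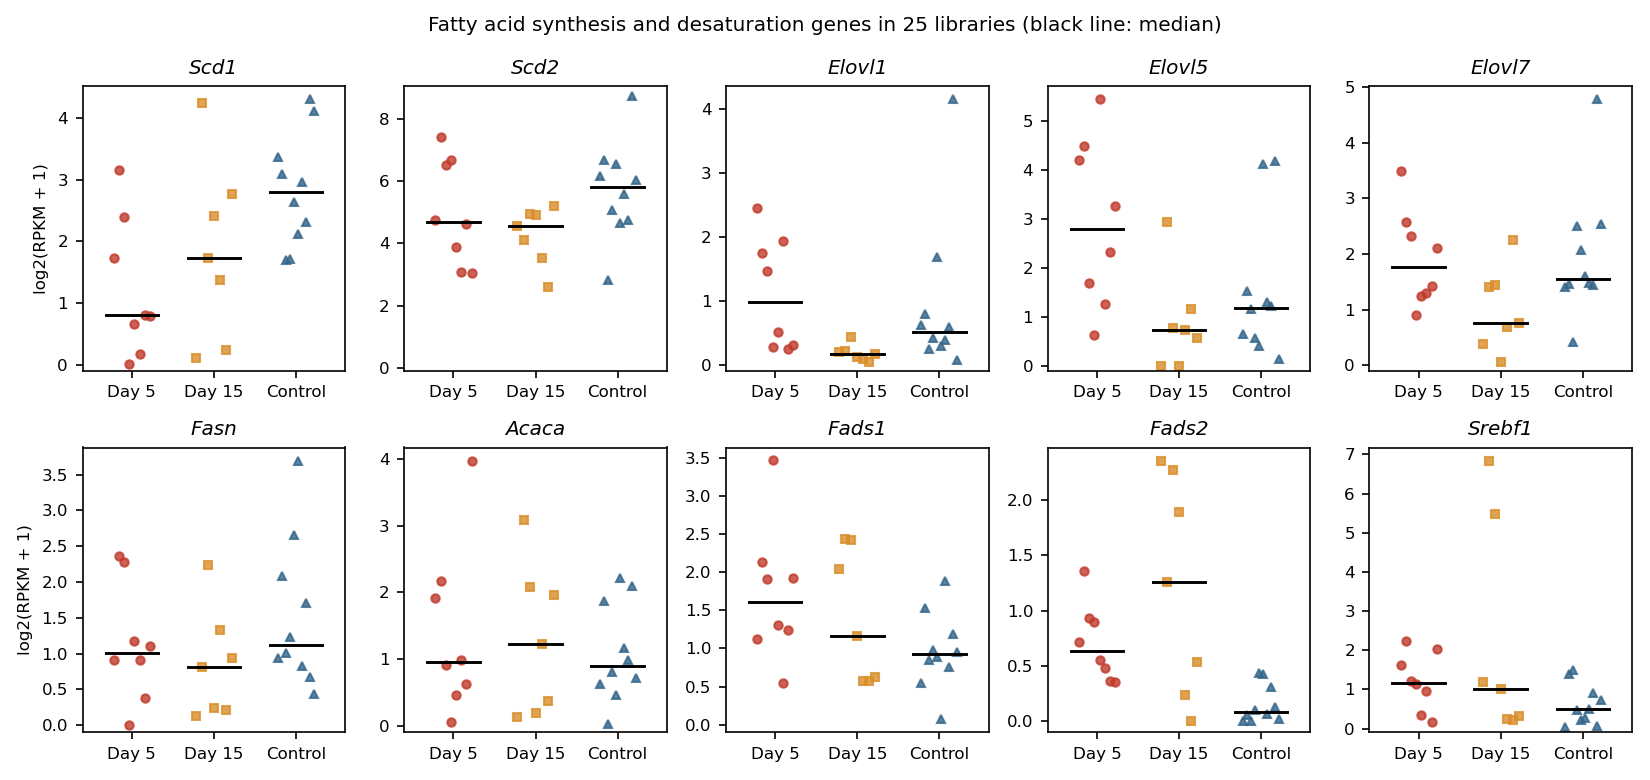
Level of each of the 10 genes as log2(RPKM + 1) in the libraries of Day 5, Day 15 and Control; each point is a library, its sideways place within a group has no meaning, and black lines are medians. Every Control library holds Scd1 at 2.25 RPKM or more, while 5 of the 8 Day 5 libraries lie under 1 RPKM; the 2 highest Srebf1 values are both from Day 15.

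Scd2 had the highest median of the 10 genes in every group. Its median level was 24.7 RPKM at Day 5, 22.5 RPKM at Day 15 and 55.5 RPKM in Control, and it exceeded Scd1 in 24 of 25 libraries. By mean, Srebf1 lay above Scd2 at Day 15, with 22.8 against 21.2 RPKM. Other members exceeded Scd2 in some single libraries, such as Elovl5 in Day 5 replicate 7, with 42.5 against 13.7 RPKM. In Control, Scd1 came next with a median of 6.01 RPKM, before Elovl7 at 1.92, Elovl5 at 1.28, Fasn at 1.17, Fads1 at 0.896, Acaca at 0.864, Elovl1 at 0.418, Srebf1 at 0.402 and Fads2 at 0.0597 RPKM. The ranges of all neighbours in that order overlapped. At Day 5 the gene next to Scd2 was Elovl5, at a median of 6.33 RPKM, and Scd1 stood ninth with 0.744 RPKM. At Day 15 Scd1 was again next to Scd2, with 2.30 RPKM, and Elovl1 was lowest with 0.120 RPKM.

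Scd1 and Scd2 are neighbouring paralogs on chromosome 19, so the sequences that tell their reads apart are shown first. Their coding sequences are 1065 and 1074 bases long and share 90.3% of aligned bases, with a longest identical run of 147 bases, and reads were 100 bases long. The stretches below, read 5′ to 3′ from the GENCODE M21 transcripts, hold the last 40 bases of that run and the 60 that follow. They are bases 630 to 729 of the Scd1 coding sequence and 639 to 738 of that of Scd2, and capitals mark the 2 bases that differ.
Scd1: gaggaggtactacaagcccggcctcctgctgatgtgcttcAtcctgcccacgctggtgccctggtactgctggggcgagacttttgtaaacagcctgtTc
Scd2: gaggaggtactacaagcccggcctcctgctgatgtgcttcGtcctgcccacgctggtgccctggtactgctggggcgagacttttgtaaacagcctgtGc
Over whole transcripts, 2.66% of 100-base windows of Scd1 and 0.896% of those of Scd2 occur exactly in another gene, so most reads of this length can be told apart. The handling of reads that match both is not described in the labels used here.

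Scd1 was lower at Day 5 than in Control in its level and in its rank within the library. It had 0.00383, 0.744 and 7.89 RPKM (lowest, median, highest) at Day 5, against 2.25, 6.01 and 18.8 RPKM in Control. The Day 5 mean was 2.08 ± 2.74 RPKM (SD, n = 8), or 1.25 RPKM without Day 5 replicate 3, and the Control mean was 7.59 ± 5.77 RPKM (SD, n = 10). The levels overlapped in the 3 Day 5 libraries with the most Scd1, replicates 1, 3 and 4. The log2 change was -1.62 (SE 0.60) and missed the threshold on the deposited values (limma adjusted p = 0.0817).

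Ranked within its own library, which no scaling of whole libraries can alter, Scd1 lay between percentiles 2.11 and 74.4 of the kept genes at Day 5 and between 79.8 and 98.5 in Control. These ranks did not overlap, which was so, in the lower direction, for 0.0695% of all genes tested. Ranks also depend on how many other genes a library holds. The median number of genes at 1 RPKM or more was 4006.5 at Day 5 and 2329.5 in Control. Scd1 at 2.31 RPKM ranked at percentile 42.2 in Day 5 replicate 1, while at 2.25 RPKM it ranked at 89.8 in Control replicate 3. The part of detection in the rank difference was not tested. Scd1 fell by 2.39 (SE 0.56, limma adjusted p = 0.0345) on the log2 scale after upper-quartile scaling, and it fell by 2.48 (SE 0.54, limma adjusted p = 0.0143) after quantile normalization. It was also called with a pseudocount of 0.1 (-2.60, limma adjusted p = 0.0343), but not with no filter on low values (-1.62, limma adjusted p = 0.219). After quantile normalization the call stayed when each of the 25 libraries was left out in turn, with changes from -2.63 to -2.26 and adjusted p from 0.0116 to 0.0409. The macrophage and microglia marker sums given above separate the same libraries, and their part in this result was not tested. The mature oligodendrocyte sums overlapped but had a lower median at Day 5 than in Control, and their part was not tested either.

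At Day 15 Scd1 had 0.0769, 2.30 and 18.0 RPKM (lowest, median, highest), with 5 of 7 libraries at 1 RPKM or more. Its ranks ran from percentile 29.6 to 94.0 and overlapped both other groups. The log2 change was -0.99 (SE 0.62, limma adjusted p = 0.666) at Day 15 against Control and 0.63 (SE 0.66, limma adjusted p = 0.677) at Day 15 against Day 5. Neither passed after quantile normalization, with -1.39 (limma adjusted p = 0.349) and 1.08 (limma adjusted p = 0.712).

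**Figure D3:**
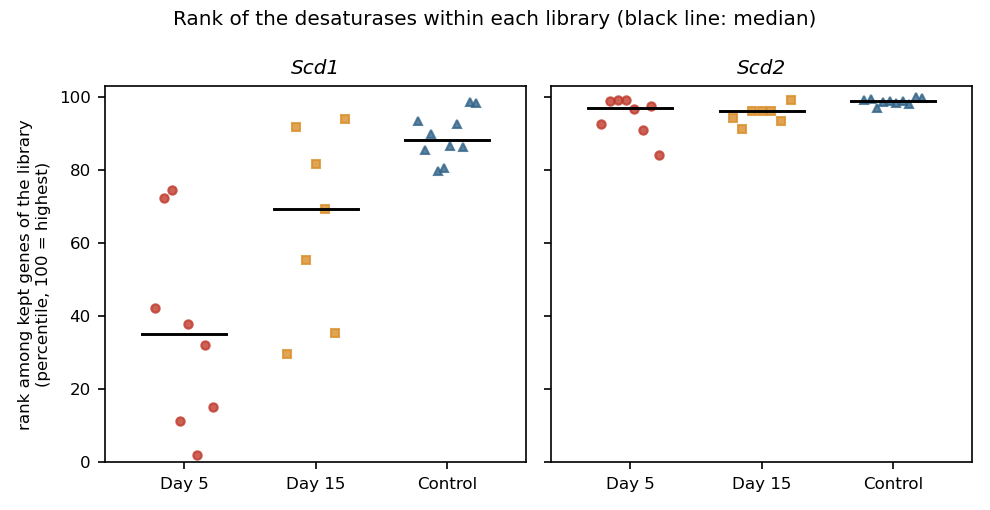
Rank of Scd1 and Scd2 among the 4319 kept genes of each library, as a percentile (100 is the highest level), in Day 5, Day 15 and Control; each point is a library, its sideways place within a group has no meaning, and black lines are medians. The Day 5 ranks of Scd1 end at 74.4, below the lowest Control rank at 79.8, while the ranks of Scd2 stay above 84 in all libraries.

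Scd2, the more abundant paralog, had lower medians than Control at both days but no call. It had 7.33, 24.7 and 168 RPKM at Day 5, 4.98, 22.5 and 36.0 RPKM at Day 15 and 6.08, 55.5 and 427 RPKM in Control (lowest, median, highest). All 3 groups overlapped. Its mean was 54.6 ± 58.8 RPKM at Day 5 (SD, n = 8), 21.2 ± 11.2 RPKM at Day 15 (SD, n = 7) and 88.9 ± 123 RPKM in Control (SD, n = 10), or 51.4 RPKM without Control replicate 9. The log2 change was -0.70 (SE 0.75, limma adjusted p = 0.573) at Day 5 against Control, -1.44 (SE 0.78, limma adjusted p = 0.610) at Day 15 against Control and -0.74 (SE 0.82, limma adjusted p = 0.702) at Day 15 against Day 5. After quantile normalization the first 2 were -1.68 (limma adjusted p = 0.260) and -2.04 (limma adjusted p = 0.211). The log2 ratio of Scd1 + 1 to Scd2 + 1 in the same library had a median of -3.51 at Day 5, -2.44 at Day 15 and -2.69 in Control, with overlapping ranges of -6.67 to -2.26, -4.45 to 0.14 and -4.43 to -1.12.

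The replicate numbers split these results. The labels name no batch, but libraries numbered 1 to 6 and 7 to 10 differ in their median RPKM sums. Without the ribosomal RNA precursor Rn45s these were 52844 and 22369 at Day 5, 45890 and 16193 at Day 15 and 25309 and 14373 in Control. Only at Day 15 did the sums separate, with 35366 to 51081 against 11722 to 16832. They overlapped at Day 5, and in Control those of 7 to 10 (10371 to 18506) lay within those of 1 to 6 (7210 to 33982). Within numbers 1 to 6 the mean log2 difference of Scd1 at Day 5 against Control was -0.62, and within 7 to 10 it was -2.82. After quantile normalization these were -1.51 and -3.75, on the same side in both ranges. Scd2 differed by 1.02 within 1 to 6 and by -2.62 within 7 to 10, or by -0.27 and -3.38 after quantile normalization. Whether the ranges differ in their response was not tested.

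Among the elongases, Elovl5, which lengthens polyunsaturated chains, was highest at Day 5. It had 0.550, 6.33 and 42.5 RPKM at Day 5, 0.00229, 0.675 and 6.63 RPKM at Day 15 and 0.0981, 1.28 and 17.2 RPKM in Control (lowest, median, highest). At least 1 RPKM was found in 7 of 8 libraries at Day 5, 2 of 7 at Day 15 and 6 of 10 in Control, and the groups overlapped. The log2 change was 1.39 (SE 0.64, limma adjusted p = 0.162) at Day 5 against Control, -0.65 (SE 0.67, limma adjusted p = 0.841) at Day 15 against Control and -2.03 (SE 0.70, limma adjusted p = 0.231) at Day 15 against Day 5. In the last comparison 0.926% of genes had a lower change, and the difference was -1.83 within numbers 1 to 6 and -2.25 within 7 to 10. After quantile normalization it was -1.62 (limma adjusted p = 0.698), and that at Day 5 against Control was 0.61 (limma adjusted p = 0.728).

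Elovl1 and Elovl7, elongases of saturated chains, had their highest values in the same Control library, replicate 9. That library also held the highest Control values of Scd1 (18.8 RPKM), Scd2 (427 RPKM) and Elovl5 (17.2 RPKM). Elovl1 had 0.178, 1.09 and 4.48 RPKM at Day 5, 0.0224, 0.120 and 0.353 RPKM at Day 15 and 0.0463, 0.418 and 16.8 RPKM in Control. Its Control mean was 2.18 RPKM, and 0.564 RPKM without Control replicate 9. At Day 15 no library reached 1 RPKM, against 4 of 8 at Day 5. In the fit with no filter on low values the log2 change of Elovl1 was 0.19 (SE 0.44, limma adjusted p = 0.866) at Day 5 against Control, -0.74 (SE 0.45, limma adjusted p = 0.942) at Day 15 against Control and -0.94 (SE 0.48, limma adjusted p = 0.627) at Day 15 against Day 5. The first of these was 0.55 without Control replicate 9, 0.0027 without Day 5 replicate 1 and -0.32 after quantile normalization.

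Elovl7 had 0.873, 2.50 and 10.3 RPKM at Day 5, 0.0363, 0.697 and 3.77 RPKM at Day 15 and 0.336, 1.92 and 26.5 RPKM in Control. Its Control mean of 4.85 RPKM was 2.44 RPKM without Control replicate 9. The log2 change was -0.05 (SE 0.54, limma adjusted p = 0.961) at Day 5 against Control, -0.97 (SE 0.56, limma adjusted p = 0.643) at Day 15 against Control and -0.92 (SE 0.59, limma adjusted p = 0.473) at Day 15 against Day 5. The 3 groups overlapped. At Day 5 the value turned to 0.26 without Control replicate 9 and was -0.83 after quantile normalization (limma adjusted p = 0.536).

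The genes of palmitate synthesis were low and showed no difference that passed. Fasn had 0, 1.02 and 4.17 RPKM at Day 5, 0.0912, 0.757 and 3.73 RPKM at Day 15 and 0.356, 1.17 and 11.9 RPKM in Control. Its log2 change was -0.39 (SE 0.48, limma adjusted p = 0.628) at Day 5 and -0.69 (SE 0.50, limma adjusted p = 0.738) at Day 15, both against Control, and -0.30 (SE 0.52, limma adjusted p = 0.813) at Day 15 against Day 5. After quantile normalization these were -1.03 (limma adjusted p = 0.277), -0.77 (limma adjusted p = 0.538) and 0.26 (limma adjusted p = 0.948).

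Acaca had 0.0385, 0.932 and 14.8 RPKM at Day 5, 0.0899, 1.34 and 7.51 RPKM at Day 15 and 0.0237, 0.864 and 3.65 RPKM in Control. Its log2 change was 0.29 (SE 0.51, limma adjusted p = 0.740) at Day 5 and 0.19 (SE 0.53, limma adjusted p = 0.962) at Day 15, both against Control, and -0.10 (SE 0.56, limma adjusted p = 0.954) at Day 15 against Day 5. The Day 5 value turned to -0.079 without Day 5 replicate 10, the library with 14.8 RPKM. Acaca is uncertain as a gene, since 42.8% of the 100-base windows of its transcript occur exactly in Gm5182, while no such window was found elsewhere for Fasn, the 3 elongases, Fads1, Fads2 or Srebf1.

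**Figure D4:**
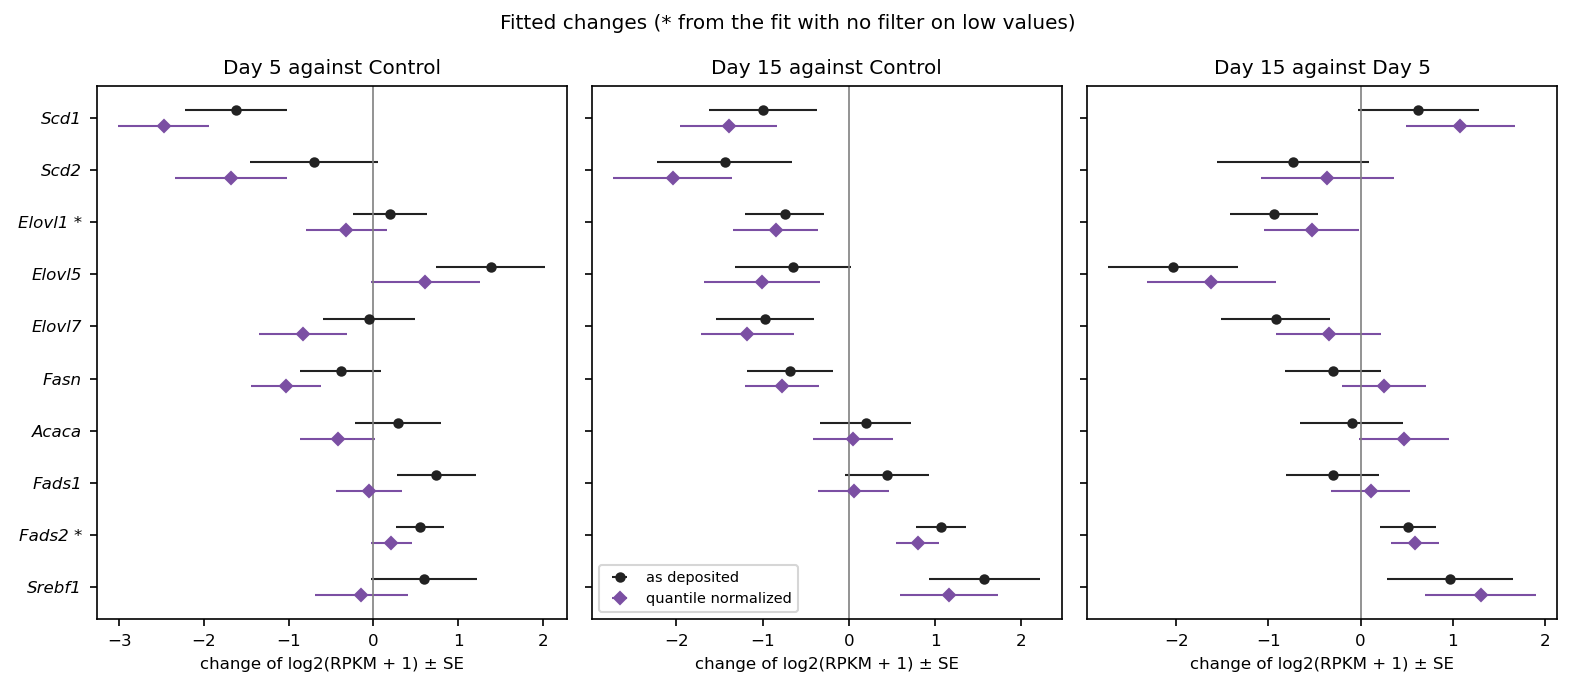
Fitted change of log2(RPKM + 1) with its standard error for the 10 genes in the 3 comparisons, on the values as deposited (circles) and after quantile normalization (diamonds); 8 libraries of Day 5, 7 of Day 15 and 10 of Control, and genes with a star come from the fit with no filter on low values. Scd1 at Day 5 against Control moves from -1.62 to -2.48, and Elovl5 has the lowest value at Day 15 against Day 5, -2.03 as deposited.

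Promoters of Fasn and Elovl5, both known in mouse as SREBP-1 targets, are shown because their levels can be set beside that of Srebf1. RefSeq promoter windows of build GRCm38.p6, from 250 bases before the start to 50 after it, were found for 7 of the 10 members, Scd1, Scd2 and Fads1 not among them. They are printed 5′ to 3′, with capitals marking CCAAT or CACGTG on either strand; overlapping matches run together. Fasn lies on the minus strand at chr11:120824498-120824797 and Elovl5 on the plus strand at chr9:77917115-77917414.
Fasn: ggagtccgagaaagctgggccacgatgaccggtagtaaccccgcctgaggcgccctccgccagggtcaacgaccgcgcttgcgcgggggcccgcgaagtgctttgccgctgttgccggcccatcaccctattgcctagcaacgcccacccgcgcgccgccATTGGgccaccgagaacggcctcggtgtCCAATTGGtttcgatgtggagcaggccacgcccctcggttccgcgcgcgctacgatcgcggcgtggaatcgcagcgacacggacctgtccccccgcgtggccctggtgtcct
Elovl5: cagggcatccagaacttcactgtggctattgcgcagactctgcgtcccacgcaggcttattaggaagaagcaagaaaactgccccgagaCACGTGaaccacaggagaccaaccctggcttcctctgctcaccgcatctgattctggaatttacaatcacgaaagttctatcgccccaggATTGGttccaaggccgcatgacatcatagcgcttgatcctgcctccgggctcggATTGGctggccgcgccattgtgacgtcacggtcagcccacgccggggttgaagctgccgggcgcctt
CCAAT, the box bound by NF-Y, a common partner of SREBP, matched 3 times in the Fasn window, with 2 of the matches overlapping each other. It matched 2 times in the window of Elovl5. This box occurs in 37.4% of 32851 RefSeq windows of this length and in 5 of the 10 windows of the members. CACGTG, the E-box, matched once, in Elovl5, and occurs in 7.15% of all windows. GGGCGG, the GC box, occurs in 35.7% of all windows and in 6 of the 10 windows of the members, but in neither of the 2 shown. TCACNCCAC, a form of the SREBP site, occurs in 1.24% of all windows and the LXR element, a direct repeat of AGGTCA with a spacer, in 0.0152%; neither of these is in the 10 windows of the members.

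Srebf1 had its 2 highest values at Day 15. It had 0.132, 1.25 and 3.69 RPKM at Day 5, 0.169, 1.000 and 113 RPKM at Day 15 and 0.0314, 0.402 and 1.82 RPKM in Control (lowest, median, highest). Day 15 replicates 3 and 5 held 113 and 43.5 RPKM, while the other 5 Day 15 libraries lay between 0.169 and 1.27 RPKM, within the range of Control. The log2 change was 0.60 (SE 0.62, limma adjusted p = 0.558) at Day 5 against Control, 1.57 (SE 0.65, limma adjusted p = 0.446) at Day 15 against Control and 0.97 (SE 0.68, limma adjusted p = 0.517) at Day 15 against Day 5. Against Control the Day 15 value was 0.80 without Day 15 replicate 3 and 1.02 without Day 15 replicate 5. Rai1, which overlaps Srebf1 in the RefSeq annotation, had 1.27 RPKM in Day 15 replicate 3. In Day 15 replicate 3 the other members had 18.0 RPKM for Scd1, 16.3 for Scd2, 0.159 for Elovl1, 6.63 for Elovl5, 1.66 for Elovl7, 0.757 for Fasn, 7.51 for Acaca, 4.40 for Fads1 and 1.39 for Fads2. In Day 15 replicate 5 they had 2.30 RPKM for Scd1, 29.4 for Scd2, 0.353 for Elovl1, 0.706 for Elovl5, 1.73 for Elovl7, 3.73 for Fasn, 3.22 for Acaca, 4.34 for Fads1 and 3.82 for Fads2. Acaca and Fads1 had their 2 highest Day 15 values in these libraries.

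Fads2 and Fads1 act in the making of long polyunsaturated fatty acids and lie near each other on chromosome 19. Both had higher medians at Day 5 and at Day 15 than in Control, but no change passed. Fads2 had 0.280, 0.554 and 1.56 RPKM at Day 5, 0, 1.39 and 4.12 RPKM at Day 15 and 0, 0.0597 and 0.350 RPKM in Control (lowest, median, highest). At Day 15, 5 of 7 libraries lay above every Control library, and so did most libraries at Day 5. In the fit with no filter on low values the log2 change was 0.55 (SE 0.28, limma adjusted p = 0.385) at Day 5 against Control, 1.07 (SE 0.29, unadjusted p = 0.00118, limma adjusted p = 0.742) at Day 15 against Control and 0.51 (SE 0.31, limma adjusted p = 0.646) at Day 15 against Day 5. Fads1 had 0.467, 2.11 and 10.0 RPKM at Day 5, 0.490, 1.25 and 4.40 RPKM at Day 15 and 0.0503, 0.896 and 2.70 RPKM in Control, with changes of 0.74 (SE 0.46, limma adjusted p = 0.302), 0.44 (SE 0.48, limma adjusted p = 0.853) and -0.30 (SE 0.51, limma adjusted p = 0.804) in the same order of comparisons. After quantile normalization Fads1 at Day 5 against Control turned to -0.054 and at Day 15 against Day 5 to 0.11.

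At Day 15, Fads1, Fads2 and Srebf1 separated by replicate number. Fads2 had 1.39 to 4.12 RPKM in the 4 libraries numbered 2 to 6 and 0 to 0.449 RPKM in the 3 numbered 7 to 9. Fads1 had 1.25 to 4.40 RPKM and 0.490 to 0.545 RPKM in the same order, and Srebf1 had 1.000 to 113 RPKM and 0.169 to 0.244 RPKM. Of all kept genes, 6.04% had every Day 15 library numbered 1 to 6 above every one numbered 7 to 10, and 2 of the 8 kept members did, Fads1 and Srebf1. Within numbers 1 to 6 the mean log2 difference at Day 15 against Control was 1.77 for Fads2, 1.21 for Fads1 and 2.97 for Srebf1, and within 7 to 10 it was 0.13, -0.60 and -0.28. After quantile normalization it was 0.66 and -0.78 for Fads1 and 2.31 and -0.35 for Srebf1. With the number range as a covariate neither Fads1 (limma adjusted p = 0.822) nor Srebf1 (limma adjusted p = 0.337) passed at Day 15 against Control.

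Other genes of lipid metabolism were read from lists by role, and 3 of them rose at Day 5, where 6.02% of all genes were called as higher. Acsl5, which activates long-chain fatty acids, rose by 1.62 (SE 0.50, limma adjusted p = 0.0427), with 0.295, 2.41 and 44.2 RPKM at Day 5 and 0.0426, 0.122 and 3.18 RPKM in Control (lowest, median, highest). Ptplb, a dehydratase of the elongation cycle, rose by 1.53 (SE 0.44, limma adjusted p = 0.0306), with 0, 1.85 and 17.1 RPKM at Day 5 and 0.00450, 0.109 and 1.20 RPKM in Control. Nr1h2, the nuclear receptor LXR beta, which in mouse activates Srebf1, rose by 1.20 (SE 0.33, limma adjusted p = 0.0263), with 0.00838, 2.45 and 4.09 RPKM at Day 5 and 0, 0.0310 and 0.694 RPKM in Control. No Control library reached 1 RPKM for Nr1h2, so it passed the filter on low values through stroke libraries alone. The Control medians of Acsl5 and Ptplb were also under 1 RPKM. Genes that enter the test mainly through stroke libraries are tilted toward a call as higher. All 3 calls were lost after quantile normalization, with changes of 0.97, 1.04 and 0.62 (limma adjusted p = 0.323, 0.289 and 0.261), after upper-quartile scaling (limma adjusted p = 0.226, 0.203 and 0.120), with no filter (limma adjusted p = 0.188, 0.156 and 0.138), with detected genes as a covariate (limma adjusted p = 0.446, 0.394 and 0.655) and when single libraries were left out. Acsl5 also lost its call with the compared groups alone (limma adjusted p = 0.0527). Ptplb also lost its call without a set of 3 libraries, Day 5 replicate 4 and Day 15 replicates 5 and 6 (limma adjusted p = 0.0519). For Acsl5 the single libraries were replicates 1, 6 and 10 of Day 5 and 1, 3, 4, 6, 7, 8, 9 and 10 of Control, with adjusted p from 0.0528 to 0.107. For Ptplb they were replicate 4 of Day 5 and 3, 4, 9 and 10 of Control, with adjusted p from 0.0508 to 0.0599, and for Nr1h2 replicates 1 and 3 of Day 5, with adjusted p of 0.0515 and 0.0618.

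The filter left 9 of 21 genes of supply, synthesis and activation, 5 of 17 of elongation and desaturation and 5 of 16 regulators. It left 4 of 22 genes of cholesterol synthesis and 5 of 21 of oxidation, so list medians cover only the genes tested. Of the genes that supply, build and activate fatty acids, 1 of 9 tested rose at Day 5, none fell, and their median log2 change was 0.56, beside 0.61 for all genes. Among the other elongation and desaturation genes 1 of 5 rose, with a median of 0.03; Cyb5r3, the reductase that feeds electrons to the desaturases, had 1.17 (limma adjusted p = 0.172) and Tecr, the reductase of the elongation cycle, -0.06 (limma adjusted p = 0.958). Among the regulators 1 of 5 rose, with a median of 0.30. Cholesterol synthesis genes had 0 of 4 called and 0 with an unadjusted p under 0.05. All 4 lay below the median of all genes, with a list median of -0.33. Of these genes 3 changed below 0, among them Sqle, squalene epoxidase, at -0.73 (limma adjusted p = 0.240). Ggps1 went the other way, at 0.44 (limma adjusted p = 0.681). Fatty acid oxidation genes had 0 of 5 called and 1 with an unadjusted p under 0.05, with a median of 0.67; that gene was Cpt1a, the gate of mitochondrial fatty acid import, at 1.64 (limma adjusted p = 0.0535), with 0.638, 5.63 and 29.1 RPKM at Day 5 and 0.125, 0.603 and 2.15 RPKM in Control.

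At Day 15 none of these 28 genes passed in limma against Control or against Day 5, and 2 and 4 of them had an unadjusted p under 0.05. Sqle was among the 2, with -1.16 against Control (SE 0.41, limma adjusted p = 0.302), and had 0.00311, 0.0576 and 0.751 RPKM at Day 15 against 0.0805, 1.30 and 19.8 RPKM in Control. In the same list 3 of 4 genes changed below 0, and Dhcr7 was at 0.10 (limma adjusted p = 0.983). The list medians against Control were 0.21 for supply and activation, -0.03 for elongation and desaturation, -0.03 for regulators, -0.54 for cholesterol synthesis and 0.04 for oxidation, beside 0.17 for all genes.

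The genes most like the abundant members across the 25 libraries were ranked by Spearman's rho of quantile-normalized levels among 4203 genes, as a description; these points share groups and the number ranges named above. Scd1 was most like Kif5a, a kinesin motor chain, with a rho of 0.81, then Mllt6 with 0.79 and Gabbr1, a GABA-B receptor subunit, with 0.70. Since Kif5a and Gabbr1 are known for their abundance in neurons, the summed level of 9 neuron markers is set beside them: it ran from 1.32 to 5.88 RPKM at Day 5, from 1.53 to 75.2 RPKM at Day 15 and from 4.39 to 20.0 RPKM in Control, and its part in the Scd1 result was not tested. Scd2 was most like Kif1a, another kinesin, with 0.69, then Itgb4 with 0.65 and Ppp1r16b with 0.64. Elovl5 was most like Atp6v1a, a subunit of the vesicular proton pump, with 0.67, then Gab2 with 0.64 and Slc12a2 with 0.62. Srebf1 was most like Plekho2 with 0.62, Ippk with 0.58 and Selk with 0.54. Among the members themselves the highest rho was 0.59, between Scd1 and Scd2, followed by 0.46 for Elovl5 and Elovl7 and 0.45 for Scd1 and Fasn, while Srebf1 had rho of 0.35 with Fads1, 0.07 with Acaca, -0.06 with Scd1, -0.07 with Fasn, -0.25 with Elovl5, -0.30 with Scd2 and -0.32 with Elovl7.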

How the data were processed

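The deposited table holds 23351 genes in 25 libraries as RPKM computed by the authors, 1 column per library and none unused. A Nugen Ovation kit amplified the cDNA, per the labels' protocols, which was sequenced as paired ends of 100 bases. The submitters' processing notes name HTSeq, STAR 2.1.4a, CASAVA 1.8.3 and the build mm9; which reads and gene lengths enter RPKM, and whether strand was counted, are not given in the sources. Values did not step in whole reads, so no depth or counting interval can be stated. Reads of genes that overlap (Elovl1 and Cdc20, Acaca and Tada2a, Srebf1 and Rai1) may be mixed.

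Genes with at least 1 RPKM in at least 7 libraries (4319) were fitted as log2(RPKM + 1) over the 3 groups with limma 3.58.1 in R 4.3.3 (intensity trend, robust variance, two-sided), adjusted by Benjamini-Hochberg over all of them; the fit was tested on simulated data. Descriptions were made in Python 3.11.15. The alternatives were a pseudocount of 0.1, no filter, 2 scalings, the number range or the count of detected genes as a covariate, a replicate block, the compared groups alone and each library left out. Added after seeing the data were leaving out 2 libraries led by Rn45s or a set of 3 libraries, quantile normalization with each library left out, and values within the number ranges. The set of 3 was picked for resemblance and held Day 5 replicate 4 and Day 15 replicates 5 and 6. Day 5 replicate 4 and Day 15 replicate 5 were the most alike pair of all libraries (Spearman's rho 0.48). Day 15 replicate 6 was in none of the closest pairs. The members, lists and rules were chosen with earlier results of these data known. All members are named, as are listed genes that were called, some of the 3 smallest p of each list at Day 5, and the 3 most alike genes of the 4 most abundant members.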

Additional observations from a re-analysis of the deposited data

Results flagged for a closer look

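In 30 sets of values (10 genes in 3 groups), a library stood apart from the rest of its group by Dixon's gap test on log2(RPKM + 1) in 3; chance gives about 1 in 20. Control replicate 9 held Elovl1 at 16.8 RPKM and Elovl7 at 26.5 RPKM, each the highest of its group. Day 15 replicate 3 held Elovl5 at 6.63 RPKM, also the highest of its group.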

How the results depend on the processing

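Genes called at Day 5 against Control numbered 261 as deposited. They were 553 with a pseudocount of 0.1, 24 with no filter, 22 after upper-quartile scaling, 20 after quantile normalization, 398 with the number range as a covariate, 0 with detected genes as a covariate (447 with an unadjusted p under 0.05), and from 96 (without Day 5 replicate 3) to 418 (without Day 5 replicate 7) with a library left out. At Day 15 against Control 4 became 38, 0 (819 unadjusted) and 9 under the first 3 of these, 1 with detected genes, 1 without the libraries led by Rn45s, 2 with the compared groups alone and 0 to 6 with a library left out; at Day 15 against Day 5, where 633 genes had an unadjusted p under 0.05, 0 became 1 without Day 5 replicate 7 and 8 without Day 15 replicate 5 (range 0 to 8). With the replicate block the counts were 499, 4 and 0. The numbers gave no sign of pairing: same-numbered libraries correlated by -0.06 to 0.08 in their deviations from group means, and 2 of 25 correlated best with their own number. The median was 0.014 for same-numbered and 0.0012 for other pairs of libraries. With all pairs this near 0, the check cannot decide whether libraries are paired.

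Scd1 at Day 5 was negative under all alternatives run and passed under 3. Its adjusted p was 0.0579 with the replicate block, 0.137 with detected genes and 0.0657 to 0.137 as deposited with a library left out. The limma adjusted p was 0.219 with no filter and 0.126 without the libraries led by Rn45s. Signs turned at Day 5 against Control under upper-quartile and quantile scaling and with detected genes for Elovl1 (-0.27, -0.32, -0.16) and Acaca (-0.31, -0.42, -0.53), under the last 2 for Srebf1 (-0.14, -0.78) and under quantile normalization for Fads1 (-0.054). With a library left out Elovl7 ran from -0.28 to 0.26 and Acaca from -0.079 to 0.48, and Acaca was -0.15 without the libraries led by Rn45s. At Day 15 against Control Acaca turned to -0.071 under upper-quartile scaling, -0.047 with detected genes and ran from -0.11 to 0.39 with a library left out. At Day 15 against Day 5 Acaca turned to 0.23, 0.47 and 0.48 under upper-quartile scaling, quantile normalization and detected genes, 0.045 with the replicate block and 0.27 without the libraries led by Rn45s, and ran from -0.40 to 0.27; Fasn turned to 0.26 and 0.21 under quantile normalization and detected genes, and Fads1 to 0.11 under quantile normalization. None of these values passed, and the cause was not tested. Depth is unknown, so levels near 0 may be missed by chance.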
